A study of Homo sapiens with 6 samples.

Results

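The integrated stress response and the unfolded protein response of BxPC-3 cells were examined through 36 genes. The genes were taken by symbol from a list and were 36 of the 26255 gene symbols in the tables. The list holds 15 genes of the ATF4 branch, which are 4 transcription factors, 5 feedback and stress targets and 6 enzymes of amino acid and one-carbon metabolism. The remaining members are the mRNAs of 2 sensors of the endoplasmic reticulum (ER) and of XBP1, 4 genes of ER-associated degradation and 14 ER chaperones and folding enzymes. BxPC-3 is an established human pancreatic cancer cell line. It was sequenced in 3 conditions with 2 libraries each, about 36 h after the start of treatment: untreated cells (Parent), cells given a negative control treatment (NC-1) and cells treated with the microRNA miR-4711-5p. The Parent cells received neither RNA, so a difference from Parent cannot be told apart from an effect of being treated at all, whereas NC-1 cells were also treated. Nothing in the labels says whether the 2 libraries of a group came from separate cultures, and p-values therefore measure only the spread between these libraries.

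In the integrated stress response, kinases such as PERK, GCN2, PKR and HRI phosphorylate the translation factor eIF2. General translation then falls while the mRNA of the transcription factor ATF4 is translated more, and ATF4 switches on genes for amino acid supply, redox balance and, under long stress, cell death. In the unfolded protein response, misfolded proteins in the ER activate PERK, the nuclease IRE1, which splices the mRNA of XBP1, and the membrane-bound factor ATF6, and their targets include the chaperones and the degradation machinery of the ER. The exocrine pancreas is known for its heavy load of secreted proteins. The values here are mRNA levels per gene, so that eIF2 phosphorylation, the ATF4 protein and XBP1 splicing were not measured.

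Expression is given as FPKM, the fragments of a gene scaled to transcript length and library size, as the authors deposited it. The 6 libraries summed to 493145 to 550772 FPKM, and 16597 to 17305 genes were above 0 in each. Read totals are not in the files. From the lowest values above 0, the relative depth of the libraries was estimated at 0.753 to 1.21 of that of the first Parent library. Low genes rest on the fewest fragments. The 6 epithelial markers (KRT7, KRT8, KRT18, KRT19, EPCAM and CDH1) were all above 1 FPKM in every library and summed to 5195 to 6247 FPKM. Of these, CDH1, which encodes E-cadherin, fell most with miR-4711-5p (-1.85 ± 0.05 (SE, adjusted p = 3.18e-06) against NC-1 and -1.93 ± 0.05 (SE, adjusted p = 2.81e-06) against Parent), KRT19 also fell against both controls (-0.50 and -0.85) and KRT18 rose against both (0.33 and 0.19). Of markers of other cell types, 4 of blood cells summed to at most 0.257 FPKM in any library and 4 of fibroblasts to between 1.30 and 2.44 FPKM, most of it COL1A1, which was not called in any comparison. The 3 endothelial markers summed to 1.33 to 1.39 FPKM in Parent, 3.23 to 3.53 in NC-1 and 0.649 to 0.775 with miR-4711-5p. This followed CDH5, which was called in all 3 comparisons and was lowest with miR-4711-5p (-1.38 against NC-1, -0.35 against Parent), while PECAM1 and VWF stayed under 1 FPKM. The part of these markers in the results was not tested. SMAD4, which BxPC-3 is known to lack, was listed at 0 in all 6 libraries. FPKM sums were highest in Parent and lowest in miR-4711-5p libraries, and the effect of scaling them to 1 sum is given for counts, medians and part of the single genes.

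Differences were tested with limma on log2(FPKM + 1) over the 12040 genes whose mean over the 6 libraries reached 1 FPKM, with Benjamini-Hochberg adjusted p under 0.05 as the threshold for a call. Fold changes are on this log2(FPKM + 1) scale, which understates the change of genes near 1 FPKM. Of the 36 members, 35 were tested. STC2, a secreted stanniocalcin, was at or below 0.0409 FPKM in every library and listed at 0 in 3 of them. With miR-4711-5p against NC-1, 9 of the 35 tested members rose, 12 fell and 14 were not called, where 18.4% of all genes rose and 21.2% fell. Against Parent, 7 rose, 14 fell and 14 were not called, where 18.7% of all genes rose and 24.7% fell. The same direction was called against both controls for 15 members, of which 5 were higher (DDIT3, PPP1R15A, SYVN1, HSPA5 and DNAJB11) and 10 lower (TRIB3, PHGDH, SEL1L, HSP90B1, HYOU1, CALR, CANX, PDIA4, PDIA6 and MANF). No member was called in opposite directions, and 8 were called against neither control. The 2 comparisons share the miR-4711-5p libraries.

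Only 6 members kept their calls against both controls in each of the 12 alternatives tried, in which the filter, the pseudocount, the scaling, the design or 1 library was changed. These were TRIB3, PHGDH, SEL1L, CANX and MANF, which fell, and PPP1R15A, which rose. Among the alternatives, median-of-ratios scaling could change almost nothing, since its factors were 1.006 to 1.007 in every library. Without either miR-4711-5p library, 4 members were called higher than in NC-1 in place of 9, and without miR-4711-5p replicate 1, 7 were called lower in place of 12. Against Parent, 2 to 7 members were called higher and 8 to 14 lower when a library was left out, with 2 higher without Parent replicate 2 or miR-4711-5p replicate 1, 3 without miR-4711-5p replicate 2 and 4 without Parent replicate 1. With the libraries scaled to the same FPKM sum, an alternative added after seeing the data, 10 members were higher and 10 lower than in NC-1, and 15 were higher and 8 lower than in Parent. That scaling moved the median of all genes from 0.00 to 0.05 against NC-1 and from -0.01 to 0.11 against Parent. It changed the calls over all genes from 2214 higher and 2549 lower to 2925 and 2083 against NC-1, and from 2255 and 2975 to 4014 and 1775 against Parent.

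**Figure D1:**
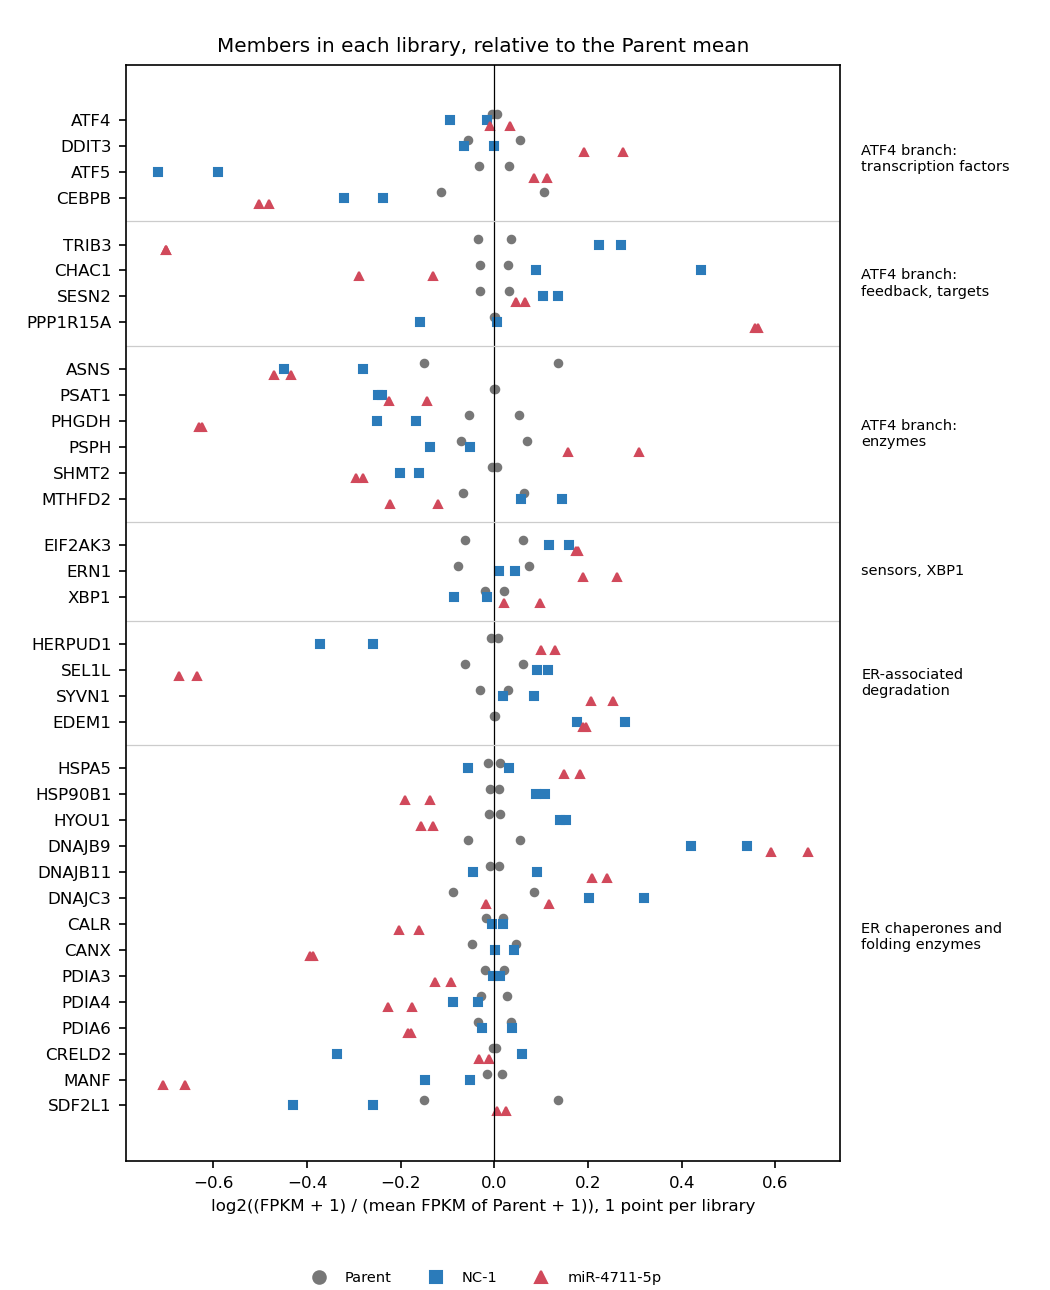
Each point is 1 library, placed by log2 of (FPKM + 1) over (the Parent mean + 1), for the 35 members tested, ordered by role, with Parent as grey circles, NC-1 as blue squares and miR-4711-5p as red triangles. The miR-4711-5p points lie left of all 4 control points for TRIB3, PHGDH, SEL1L, CANX and MANF and right of them for PPP1R15A and DDIT3, whereas for ATF4 the points of the 3 groups lie close together.

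Matches to the seed of the microRNA were also sought in the 3′ UTRs of the members, since these are the sites through which a microRNA is known to lower an mRNA. The mature sequence in RefSeq (GRCh38.p14, chr1:59733269-59733291, minus strand) is shown with bases 2 to 8 in capitals.
hsa-miR-4711-5p: uGCAUCAGgccagaagacaugag
A match was counted as CTGATGC (7mer-m8), TGATGCA (7mer-A1) or both together (8mer). In the longest annotated 3′ UTR (GENCODE, GRCh37), 6 of the 36 members held a match (16.7%), beside 18.5% of the 10593 tested genes with a 3′ UTR, so that the share was near the background. They were CEBPB, TRIB3, CHAC1, EIF2AK3, ERN1 and SEL1L. CANX had a match in a shorter 3′ UTR of other transcripts, which made 7 of 36 (19.4% beside 20.6%). The sites of the members that fell are printed with up to 11 bases on each side, in the direction of the transcript, with the match in capitals.
CEBPB 7mer-A1 (chr20:48808933-48808939, plus strand): ggtttcgaagtTGATGCAatcggtttaaa
TRIB3 7mer-m8 (chr20:377694-377700, plus strand): gtcggcctccaCTGATGCtggtgctcagg
CHAC1 7mer-m8 (chr15:41248505-41248511, plus strand): cagagctggagCTGATGCctggacacagc
SEL1L 7mer-m8 (chr14:81943161-81943167, minus strand): ctgcttagaatCTGATGCctttattttca
SEL1L 7mer-A1 (chr14:81938684-81938690, minus strand): aaaagcctacaTGATGCAaactgtggcaa
CANX 7mer-A1 (chr5:179158090-179158096, plus strand): ccacgtgagttTGATGCAgtcttttctgt
The sites of TRIB3 and CHAC1 are in 1 of 2 and 1 of 3 annotated transcripts with a 3′ UTR, and both SEL1L sites in 1 of 2. The CANX site is in 22 of 30. ERN1 has an 8mer in its longest 3′ UTR and a 7mer-A1 in another, each in 1 of 4.

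Of the 7 members with a match in any 3′ UTR, 4 fell against NC-1 (TRIB3, CHAC1, SEL1L and CANX) and 4 against Parent (CEBPB, TRIB3, SEL1L and CANX), and none rose. Of the 2180 tested genes with a match in any 3′ UTR, 35.7% fell and 11.7% rose against NC-1, beside 18.7% and 20.9% of the 8413 without one, and 34.0% fell and 15.4% rose against Parent, beside 24.0% and 19.9%. The 2 controls also differed by match. In NC-1 against Parent, 10.1% of genes with a match were lower and 16.7% higher, beside 17.2% and 11.3% without one. The part of this in the comparison with NC-1 was not tested. EIF2AK3 and ERN1 were not called. The median log2 fold change of the 7 members was -0.41 against NC-1 and -0.39 against Parent, beside 0.01 and 0.02 in the 28 tested members without a match, and -0.10 and -0.07 over all tested genes with one. In NC-1 against Parent the median was 0.10 in the 7 members and -0.04 in the 28 without a match. Of these 28, 9 rose and 8 fell against NC-1, among them PHGDH and MANF, which fell in every alternative without a match. Whether a site acts was not tested.

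The transcription factors of the ATF4 branch did not move together. ATF4 itself, the factor that gives the branch its name, was not called, DDIT3 rose against both controls, ATF5 was higher than in NC-1 only and CEBPB was lower than in Parent only. ATF4 mRNA was at 195 and 194 FPKM in the Parent libraries, 192 and 182 in the NC-1 libraries and 199 and 193 in the miR-4711-5p libraries. The 3 groups lay close together, with a log2 fold change of 0.07 against NC-1 (95% interval -0.04 to 0.17) and 0.01 against Parent (-0.09 to 0.11). The genome holds 4 ATF4 pseudogenes, with which reads may be shared. DDIT3, which encodes the death-associated factor CHOP, was at 16.4 and 15.1 FPKM in Parent, 15.1 and 15.8 in NC-1 and 19.3 and 18.2 with miR-4711-5p. Its miR-4711-5p libraries were above all 4 control libraries, with 0.27 ± 0.06 (SE, adjusted p = 0.0138) against NC-1 and 0.23 ± 0.06 (SE, adjusted p = 0.0209) against Parent. The call against NC-1 was lost without NC-1 replicate 1 or miR-4711-5p replicate 1 (adjusted p from 0.0776 to 0.101) and the call against Parent without Parent replicate 2 or either miR-4711-5p library (0.0522 to 0.138).

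ATF5, a stress factor translated under the same control as ATF4, was at 51.6 and 49.3 FPKM in Parent, 33.1 and 30.3 in NC-1 and 54.5 and 53.5 with miR-4711-5p. The NC-1 libraries were the low ones. ATF5 was higher with miR-4711-5p than in NC-1 (0.75 ± 0.06 SE, adjusted p = 9.17e-05), lower in NC-1 than in Parent (-0.65 ± 0.06 SE, adjusted p = 0.000908), and not called between miR-4711-5p and Parent (0.10, 95% interval -0.03 to 0.23). The called differences were kept in all 12 alternatives. CEBPB, a partner of ATF4 and CHOP, was at 40.0 and 34.2 FPKM in Parent, 31.3 and 29.5 in NC-1 and 26.3 and 25.9 with miR-4711-5p. It fell against Parent (-0.49 ± 0.08 SE, adjusted p = 0.00217), and the difference from NC-1 was not called (-0.21 ± 0.08 SE, adjusted p = 0.0624). Exons of DDIT3, ATF5 and CEBPB overlap antisense genes, and those of DDIT3 and ATF5 also a gene on the same strand. Several other members have overlaps too. The kit was strand-specific, but whether the counting used strand is not stated.

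Among the feedback and stress targets, TRIB3 fell and PPP1R15A rose against both controls. TRIB3, a pseudokinase that ATF4 and CHOP induce and that in turn restrains ATF4, was at 14.6 and 15.4 FPKM in the Parent libraries, 18.3 and 17.6 in the NC-1 libraries and 8.82 and 8.82 in the miR-4711-5p libraries. The miR-4711-5p libraries were the lowest, and NC-1 was the highest group. The log2 fold change was -0.95 ± 0.05 (SE, adjusted p = 2.83e-05) against NC-1 and -0.70 ± 0.05 (SE, adjusted p = 9.31e-05) against Parent, the largest fall of any member in either comparison. PPP1R15A encodes GADD34, which directs a phosphatase to eIF2 and so reverses the response, and was at 34.0 and 33.9 FPKM in Parent, 34.1 and 30.3 in NC-1 and 50.6 and 50.4 with miR-4711-5p. It rose by 0.64 ± 0.06 (SE, adjusted p = 0.000285) against NC-1 and by 0.56 ± 0.06 (SE, adjusted p = 0.000444) against Parent, with no overlap of the miR-4711-5p libraries with the controls. CHAC1, an enzyme that degrades glutathione, was at 2.21 and 2.08 FPKM in Parent, 3.28 and 2.35 in NC-1 and 1.87 and 1.58 with miR-4711-5p. Its fall against NC-1 (-0.48 ± 0.14 SE, adjusted p = 0.0292) was lost without NC-1 replicate 1, either Parent library or either miR-4711-5p library (adjusted p 0.0512 to 0.148), with no filter on low values or with only the 2 groups in the fit, and it was not called against Parent. SESN2, a stress-induced inhibitor of mTORC1 signalling, stayed between 7.70 and 8.77 FPKM and was not called in any comparison on the deposited scale.

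**Figure D2:**
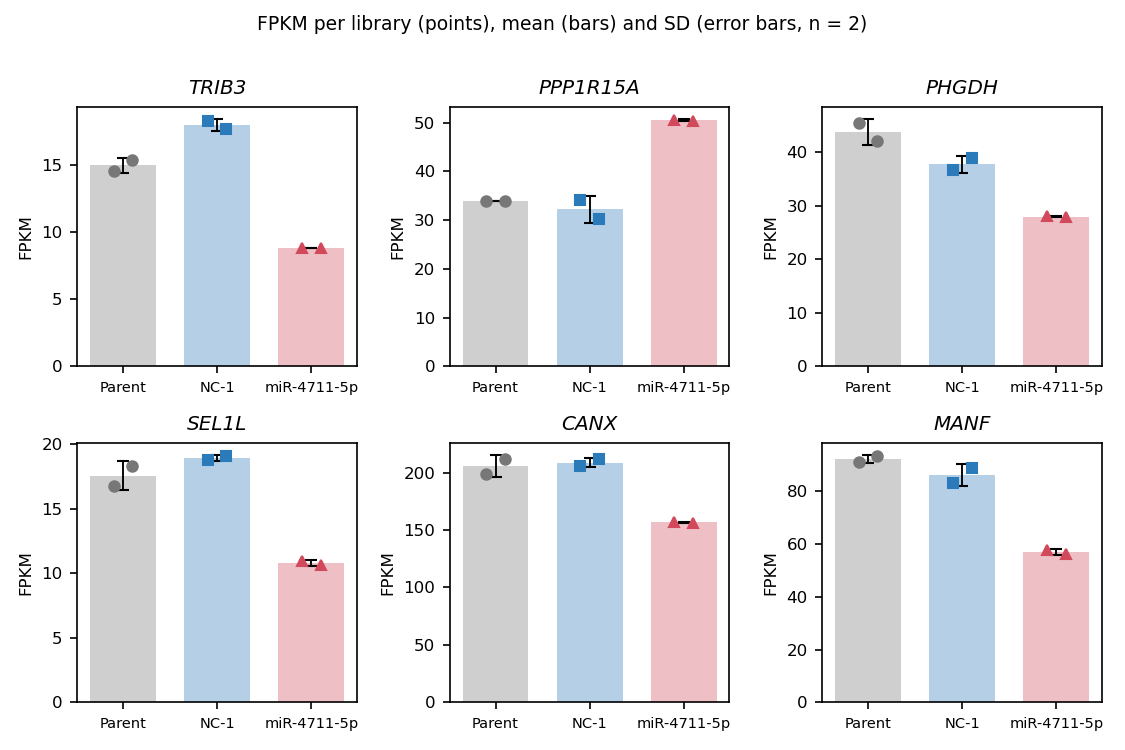
FPKM of the 6 members whose calls against both controls were kept in every alternative, with points for the libraries, bars for the means and error bars for the SD of the 2 libraries, on axes that start at 0. TRIB3 was at 8.82 FPKM in both miR-4711-5p libraries against at least 14.6 in the 4 controls, and PPP1R15A at 50.4 FPKM or more against at most 34.1.

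The list of enzymes of serine, asparagine and one-carbon metabolism holds 6 genes that ATF4 is known to induce. Against NC-1, 1 of 6 rose and 2 fell, near the shares over all genes (18.4% higher and 21.2% lower). Against Parent, 4 fell and none rose, beside 24.7% lower and 18.7% higher over all genes. The same number, 4 of 6, were lower in NC-1 than in Parent (ASNS, PSAT1, PHGDH and SHMT2), where 15.1% of all genes were lower, but all 4 of these calls were lost with equal FPKM sums (adjusted p 0.0609 to 0.126) and each was also lost on leaving out any 1 of at least 3 of the 6 libraries. PHGDH, the first enzyme of serine synthesis, was at 45.4 and 42.1 FPKM in the Parent libraries, 36.6 and 38.9 in the NC-1 libraries and 28.0 and 27.9 in the miR-4711-5p libraries. Its miR-4711-5p libraries were the lowest of all, and NC-1 lay between them and Parent. The log2 fold change was -0.42 ± 0.06 (SE, adjusted p = 0.00123) against NC-1 and -0.63 ± 0.06 (SE, adjusted p = 0.000177) against Parent. PSAT1, the next enzyme of the same pathway, was at 23.5 and 23.4 FPKM in Parent, 19.6 and 19.7 in NC-1 and 21.1 and 19.9 with miR-4711-5p, where NC-1 and miR-4711-5p lay close together (0.06 against NC-1, 95% interval -0.06 to 0.18). Its fall against Parent (-0.18 ± 0.05 SE, adjusted p = 0.0229) was lost without either Parent library or miR-4711-5p replicate 2 (adjusted p 0.0713 to 0.137) and with equal FPKM sums (-0.05). PSPH, which makes serine in the last step, was at 8.31 and 9.27 FPKM in Parent, 8.44 and 7.91 in NC-1 and 9.92 and 11.1 with miR-4711-5p and rose against NC-1 (0.33 ± 0.08 SE, adjusted p = 0.016), a call lost without NC-1 replicate 2 or miR-4711-5p replicate 2 (adjusted p 0.0909 to 0.111).

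SHMT2, the mitochondrial enzyme that moves a carbon from serine to folate, was at 101 and 100.2 FPKM in Parent, 89.8 and 87.3 in NC-1 and 82.6 and 81.8 with miR-4711-5p. It fell against Parent (-0.29 ± 0.04 SE, adjusted p = 0.00135), kept in all 12 alternatives, and was not called against NC-1 (-0.11 ± 0.04 SE, adjusted p = 0.0743). MTHFD2, which acts next in the same mitochondrial pathway, was at 39.4 and 43.1 FPKM in Parent, 45.7 and 43.0 in NC-1 and 35.2 and 37.9 with miR-4711-5p. It fell against NC-1 (-0.27 ± 0.06 SE, adjusted p = 0.0144), except without NC-1 replicate 1 or miR-4711-5p replicate 1 (adjusted p 0.0832 to 0.103). ASNS, asparagine synthetase and a classical ATF4 target, was at 11.6 and 14.4 FPKM in Parent, 9.27 and 10.6 in NC-1 and 9.13 and 9.38 with miR-4711-5p. Here the Parent libraries were the high ones, and the fall against Parent (-0.45 ± 0.10 SE, adjusted p = 0.0117) was lost without Parent replicate 2 or either miR-4711-5p library (0.055 to 0.0773). Named pseudogenes exist for ASNS (5), PSAT1 (4), PSPH (1) and MTHFD2 (7), so that their levels may hold reads of copies. The same holds, outside these enzymes, for XBP1 (1), HSPA5 (1) and PDIA3 (2).

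On the deposited scale the mRNAs of the ER sensors were not called in any comparison. EIF2AK3, which encodes the kinase PERK, was at 3.80 and 3.41 FPKM in Parent, 4.14 and 3.99 in NC-1 and 4.21 and 4.19 with miR-4711-5p. ERN1, which encodes IRE1, was at 2.70 and 3.11 FPKM in Parent, 3.03 and 2.93 in NC-1 and 3.69 and 3.46 with miR-4711-5p, with the miR-4711-5p libraries above all controls but no call (0.20 ± 0.09 (SE, adjusted p = 0.12) against NC-1 and 0.23 ± 0.09 (SE, adjusted p = 0.0778) against Parent). XBP1, the mRNA that IRE1 splices, was at 42.0 and 43.2 FPKM in Parent, 42.1 and 40.1 in NC-1 and 43.3 and 45.7 with miR-4711-5p. The table holds 1 value per gene and cannot separate its spliced form. With equal FPKM sums, all 3 were called higher than in Parent and 1 higher than in NC-1.

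In ER-associated degradation, SEL1L fell while HERPUD1 and SYVN1 were higher than in NC-1. SEL1L, the adaptor of the ubiquitin ligase that SYVN1 (HRD1) encodes, was at 16.8 and 18.3 FPKM in the Parent libraries, 18.8 and 19.1 in the NC-1 libraries and 10.95 and 10.6 in the miR-4711-5p libraries. The log2 fold change was -0.76 ± 0.06 (SE, adjusted p = 0.000119) against NC-1 and -0.65 ± 0.06 (SE, adjusted p = 0.000199) against Parent. Its partner SYVN1 was at 24.9 and 23.9 FPKM in Parent, 24.7 and 25.9 in NC-1 and 29.3 and 28.3 with miR-4711-5p and rose against NC-1 (0.18 ± 0.05 SE, adjusted p = 0.0303) and Parent (0.23 ± 0.05 SE, adjusted p = 0.0107). Each call was lost in more than 1 of the fits with a library left out. The first was lost without NC-1 replicate 1 or either miR-4711-5p library. The second was lost without Parent replicate 2 or miR-4711-5p replicate 1. Exons of SYVN1 overlap FAU on the same strand and MRPL49 on the other, so that its level may hold reads of these genes. HERPUD1, a membrane protein that binds this ligase, was at 30.2 and 29.9 FPKM in Parent, 23.0 and 25.0 in NC-1 and 32.3 and 33.0 with miR-4711-5p. NC-1 was the low group, as for ATF5. HERPUD1 was higher with miR-4711-5p than in NC-1 (0.43 ± 0.05 SE, adjusted p = 0.000916), lower in NC-1 than in Parent (-0.32 ± 0.05 SE, adjusted p = 0.0072) and not called between miR-4711-5p and Parent (0.11, 95% interval -0.01 to 0.24). EDEM1, which delivers misfolded glycoproteins to degradation, was at 28.7 and 28.7 FPKM in Parent, 35.03 and 32.6 in NC-1 and 32.9 and 33.0 with miR-4711-5p. It was higher than in Parent both with miR-4711-5p (0.19) and in NC-1 (0.23), and each of these calls was lost without either Parent library (adjusted p 0.0645 to 0.0953 over the libraries that decided it, which were also both miR-4711-5p libraries for the first and NC-1 replicate 1 for the second).

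The promoters of some members hold the elements by which the unfolded protein response or ATF4 is known to act. They are shown because genes with the same element, the ERSE, moved in different directions. The ER stress response element (ERSE), bound by NF-Y together with ATF6 or XBP1, was searched as CCAAT, 9 bases of any kind and CCACG. ERSE-II was searched as ATTGG, 1 base of any kind and CCACG, the unfolded protein response element (UPRE) as TGACGTGG, and the element of ATF4 with C/EBP factors (CARE) as TGATG, 1 base of any kind and AA, all on both strands, in windows from 250 bases before to 50 bases after each start site in RefSeq (GRCh38.p14). A promoter was matched for 33 of 36 members, not for PSPH, SHMT2 and PDIA3. An ERSE was in 7 of the 33 (CALR, CANX, CRELD2, HSP90B1, HSPA5, PDIA6 and XBP1) and in 0.0916% of all 27305 genes. ERSE-II was in 3 (HERPUD1, HYOU1 and SDF2L1) beside 0.0696% of all genes, UPRE in HYOU1 beside 0.927%, and CARE in 3 (ASNS, CHAC1 and HERPUD1) beside 4.46%. The members were listed as genes of these responses, and the motifs are elements known for them. A higher share than over all genes is therefore no result of these data. The elements are printed with 5 bases on each side, in the direction of the motif, with the motif in capitals.
HSPA5 ERSE (chr9:125241391-125241409, minus strand): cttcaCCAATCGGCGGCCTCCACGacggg
HSP90B1 ERSE (chr12:103930216-103930234, plus strand): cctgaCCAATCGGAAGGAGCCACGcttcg
CALR ERSE (chr19:12938384-12938402, minus strand): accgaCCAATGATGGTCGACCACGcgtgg
CANX ERSE (chr5:179698778-179698796, plus strand): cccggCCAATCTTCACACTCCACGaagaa
PDIA6 ERSE (chr2:10812853-10812871, minus strand): ccggaCCAATGAGCCGCAGCCACGgcttg
XBP1 ERSE (chr22:28800603-28800621, minus strand): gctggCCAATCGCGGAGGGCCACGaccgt
CRELD2 ERSE (chr22:49918554-49918572, minus strand): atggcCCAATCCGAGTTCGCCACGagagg
HERPUD1 ERSE-II (chr16:56932025-56932035, plus strand): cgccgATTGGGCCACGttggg
SDF2L1 ERSE-II (chr22:21642114-21642124, minus strand): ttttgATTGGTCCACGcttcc
HYOU1 ERSE-II (chr11:119057380-119057390, plus strand): ctgggATTGGACCACGtcacg
HYOU1 UPRE (chr11:119057386-119057393, minus strand): ccccgTGACGTGGtccaa
HERPUD1 CARE (chr16:56931966-56931973, minus strand): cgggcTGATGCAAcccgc
CHAC1 CARE (chr15:40953262-40953269, minus strand): aggagTGATGCAAcggca
ASNS CARE (chr7:97872469-97872476, minus strand): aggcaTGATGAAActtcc
HSP90B1 held the ERSE a second time, on the other strand. In HYOU1 the UPRE overlaps the first of the ERSE-II matches by some bases, and the TGATGCAA form of CARE contains the letters of the 7mer-A1 seed match given above. The first base of the HSPA5 element in these windows lies 66 bases before the annotated start, that of PDIA6 86 bases and that of CALR 225 bases. The CANX element falls in 3 overlapping windows, for 3 annotated starts.

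Of the 14 ER chaperones and folding enzymes, 3 rose and 7 fell with miR-4711-5p in both comparisons. Over all genes 18.4% rose and 21.2% fell against NC-1, and 18.7% rose and 24.7% fell against Parent, so that the count of rises was near the background. The members that rose against NC-1 were HSPA5, DNAJB11 and SDF2L1, and those that rose against Parent were HSPA5, DNAJB11 and DNAJB9. The same 7 fell against both controls (HSP90B1, HYOU1, CALR, CANX, PDIA4, PDIA6 and MANF), so that HSPA5 and HSP90B1 moved in opposite directions. The 7 that fell were at 56.0 FPKM or more in every library, with SE of 0.04 to 0.05 against NC-1. The share over all genes includes genes down to a mean of 1 FPKM, some with larger errors. A share among genes of like level was not computed. Without either miR-4711-5p library no chaperone was called higher than in NC-1, and without miR-4711-5p replicate 1, 4 were called lower than in NC-1 and 2 lower than in Parent. HSPA5, which encodes BiP, the chaperone that holds the sensors inactive and whose promoter holds the ERSE shown above, was at 308 and 302 FPKM in the Parent libraries, 312 and 293 in the NC-1 libraries and 338 and 346 in the miR-4711-5p libraries. It rose by 0.18 ± 0.04 (SE, adjusted p = 0.0163) against NC-1 and 0.17 ± 0.04 (SE, adjusted p = 0.02) against Parent, and the calls were lost without either miR-4711-5p library, NC-1 replicate 2 or, against Parent, either Parent library (adjusted p 0.0635 to 0.113). HSP90B1, which encodes GRP94, was at 376 and 381 FPKM in Parent, 408 and 403 in NC-1 and 332 and 344 with miR-4711-5p. It fell by 0.26 ± 0.04 (SE, adjusted p = 0.00195) against NC-1, kept in all 12 alternatives. Against Parent the fall (-0.16 ± 0.04 SE, adjusted p = 0.0128) was lost without Parent replicate 2 or miR-4711-5p replicate 1 (adjusted p 0.0605 to 0.0964) and with equal FPKM sums (-0.02).

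The lectin chaperones of the ER, which hold newly made glycoproteins, both fell. CANX, calnexin, was at 199 and 212 FPKM in the Parent libraries, 206 and 211 in the NC-1 libraries and 157 and 156 in the miR-4711-5p libraries. The log2 fold change was -0.41 ± 0.05 (SE, adjusted p = 0.000525) against NC-1 and -0.39 ± 0.05 (SE, adjusted p = 0.000592) against Parent. CALR, calreticulin, was at 745 and 727 FPKM in Parent, 734 and 745 in NC-1 and 639 and 658 with miR-4711-5p. It fell by 0.19 ± 0.04 (SE, adjusted p = 0.00738) against NC-1, a call lost without miR-4711-5p replicate 1 (adjusted p 0.0661), and by 0.18 ± 0.04 (SE, adjusted p = 0.00783) against Parent, lost without Parent replicate 1 or miR-4711-5p replicate 1 (0.0543 to 0.0693) and with equal FPKM sums (-0.04). MANF, a secreted ER protein that binds BiP and protects cells from ER stress, had the largest fall among the chaperones. It was at 91.1 and 93.1 FPKM in Parent, 83.0 and 88.8 in NC-1 and 57.9 and 56.0 with miR-4711-5p. The log2 fold change was -0.58 ± 0.05 (SE, adjusted p = 0.000158) against NC-1 and -0.68 ± 0.05 (SE, adjusted p = 6.2e-05) against Parent.

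HYOU1, a large chaperone that acts as an exchange factor for BiP, was at 106 and 104 FPKM in Parent, 116 and 117 in NC-1 and 95.9 and 94.2 with miR-4711-5p. It fell against NC-1 (-0.29 ± 0.04 SE, adjusted p = 0.0013), kept in all 12 alternatives. The fall against Parent (-0.14 ± 0.04 SE, adjusted p = 0.0224) was lost when any Parent or miR-4711-5p library was left out (adjusted p 0.05 to 0.115) and with equal FPKM sums (-0.01). The protein disulfide isomerases form the bonds of secreted proteins. PDIA6 was at 101 and 106 FPKM in Parent, 106 and 101 in NC-1 and 90.7 and 91.2 with miR-4711-5p, and PDIA4 was at 269 and 258 FPKM in Parent, 248 and 257 in NC-1 and 225 and 233 with miR-4711-5p. In both, the miR-4711-5p libraries were below all controls. Neither kept its call against NC-1 (-0.19 for PDIA6, -0.14 for PDIA4) in all alternatives. For PDIA6 it was lost without NC-1 replicate 1 or either miR-4711-5p library (adjusted p 0.0758 to 0.0881), and for PDIA4 without any 1 of the 6 libraries (0.0501 to 0.2), with no filter, with the replicate block and with only the 2 groups in the fit. Against Parent the falls were -0.18 for PDIA6, lost without Parent replicate 2 or either miR-4711-5p library (0.0759 to 0.0905), and -0.20 for PDIA4, lost without Parent replicate 1 or miR-4711-5p replicate 1 (0.0557 to 0.0744). With equal FPKM sums neither was called against either control. PDIA3 ranged from 306 to 339 FPKM and was not called.

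The J-domain proteins, which stimulate the ATP use of BiP, differed from one another. DNAJB11 was at 61.5 and 62.3 FPKM in Parent, 65.9 and 60.0 in NC-1 and 73.3 and 71.7 with miR-4711-5p and rose against NC-1 (0.20 ± 0.05 SE, adjusted p = 0.0227) and Parent (0.23 ± 0.05 SE, adjusted p = 0.014). These calls were lost without either miR-4711-5p library, NC-1 replicate 2 or, against Parent, either Parent library (adjusted p 0.0522 to 0.122). DNAJB9, a classical target of spliced XBP1 that represses IRE1, was at 5.87 and 6.42 FPKM in Parent, 9.39 and 8.56 in NC-1 and 10.4 and 9.77 with miR-4711-5p. Both treated groups were above Parent, with 0.63 ± 0.07 (SE, adjusted p = 0.000594) for miR-4711-5p and 0.48 ± 0.07 (SE, adjusted p = 0.00512) for NC-1, and the difference between them was not called (0.15, 95% interval -0.02 to 0.32). DNAJC3, which inhibits PERK in some settings, ranged from 14.5 to 19.5 FPKM and was not called. SDF2L1, a partner of DNAJB11, was at 30.0 and 24.4 FPKM in Parent, 19.9 and 22.5 in NC-1 and 27.3 and 27.6 with miR-4711-5p. It was higher than in NC-1 (0.36 ± 0.10 SE, adjusted p = 0.0254), which was lost without NC-1 replicate 1 or either miR-4711-5p library (adjusted p 0.107 to 0.142) and with no filter on low values, and close to Parent (0.02, 95% interval -0.21 to 0.26). CRELD2, a stress-induced ER protein, was between 18.9 and 25.2 FPKM and was not called.

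**Figure D3:**
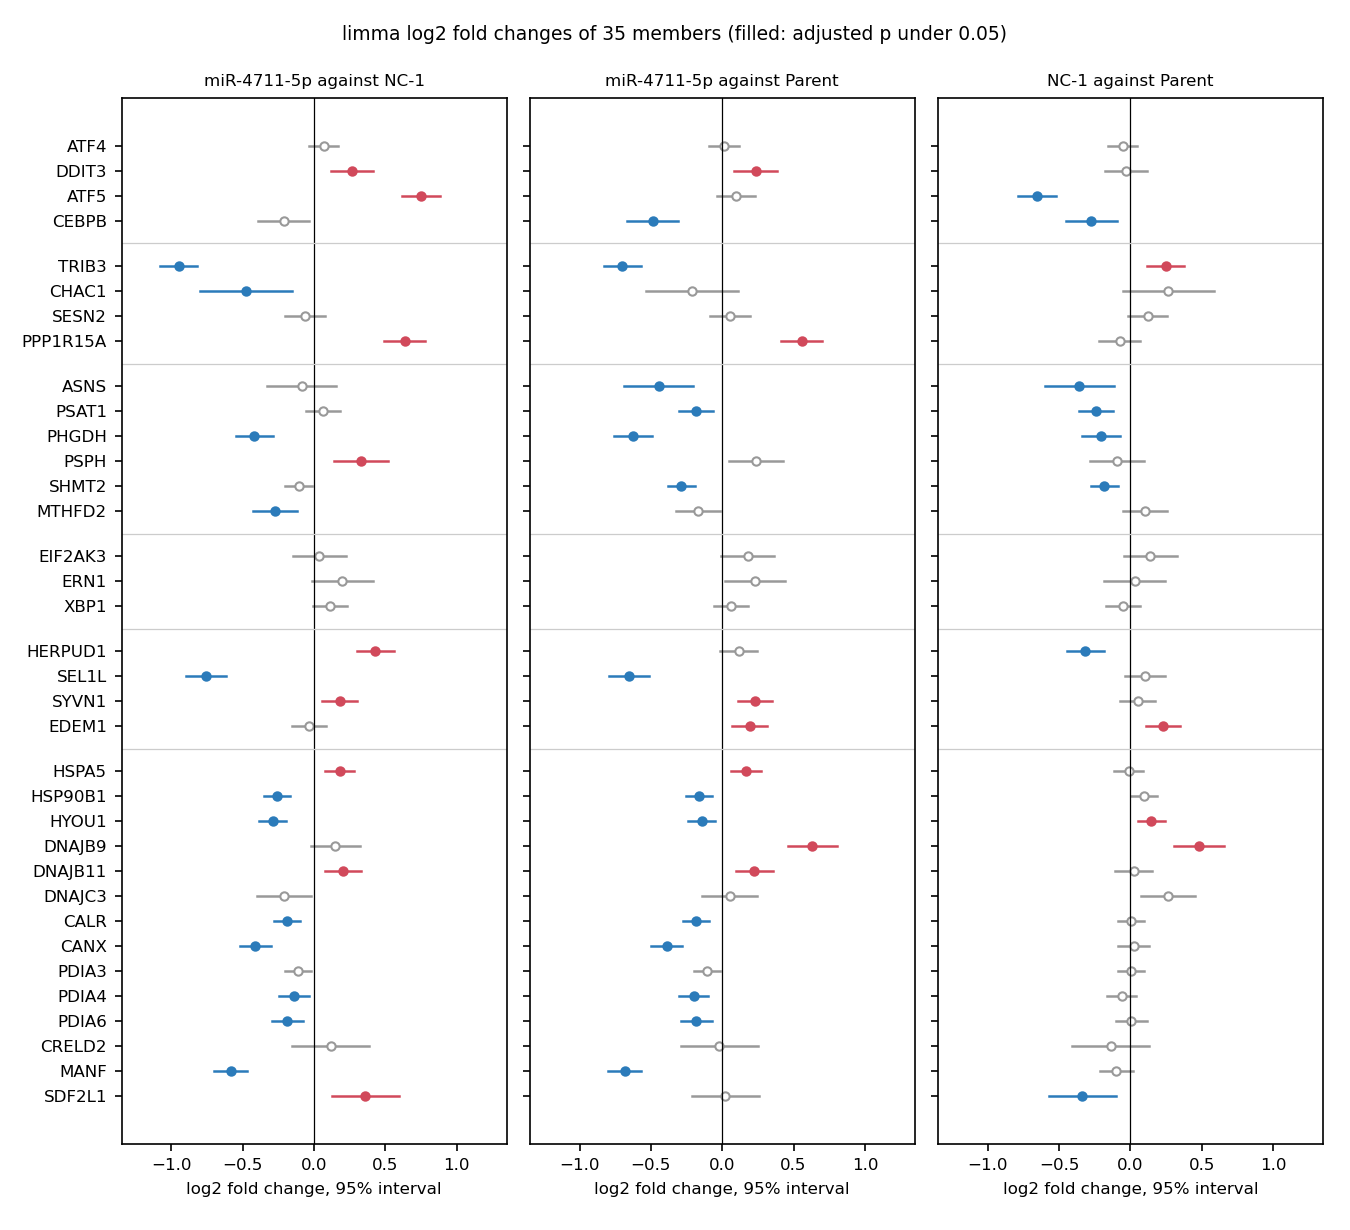
Log2 fold changes of the 35 tested members (horizontal axis) with 95% intervals from limma, in 3 panels for the 3 comparisons, filled where the adjusted p was under 0.05, red for higher and blue for lower. With miR-4711-5p, 7 of 14 chaperones were called lower against each control, where 21.2% (against NC-1) and 24.7% (against Parent) of all genes were lower. NC-1 against Parent had 1 lower and 2 higher, where 15.1% of all genes were lower and 12.1% higher. With equal FPKM sums, 2 chaperones were called lower than in Parent with miR-4711-5p. The shares over all genes were not matched for expression level.

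Of the 7 members with an ERSE, 1 rose (HSPA5), 4 fell (HSP90B1, CALR, CANX and PDIA6) and 2 were not called (XBP1 and CRELD2), with the same counts against both controls (18.4% and 18.7% of all genes rose, 21.2% and 24.7% fell). Their log2 fold changes ran from -0.41 to 0.18 against NC-1 and from -0.39 to 0.17 against Parent. With equal FPKM sums HSP90B1, CALR and PDIA6 were not called against Parent (-0.02, -0.04 and -0.04), and PDIA6 was not called against NC-1 (-0.13). Under that scaling HSPA5 stayed higher and CANX lower against both controls, and XBP1 was called higher than in Parent. On the deposited scale, none of the 7 was called between NC-1 and Parent. Of the members with ERSE-II, HERPUD1 and SDF2L1 rose and HYOU1 fell against NC-1, which was the low group for the first 2 genes. Against Parent, HYOU1 fell and the other two were not called. Of those with a CARE, HERPUD1 rose, CHAC1 fell and ASNS was not called against NC-1, whereas against Parent ASNS fell and the other two were not called. A match is a description of letters and was not tested as a binding site.

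**Figure D4:**
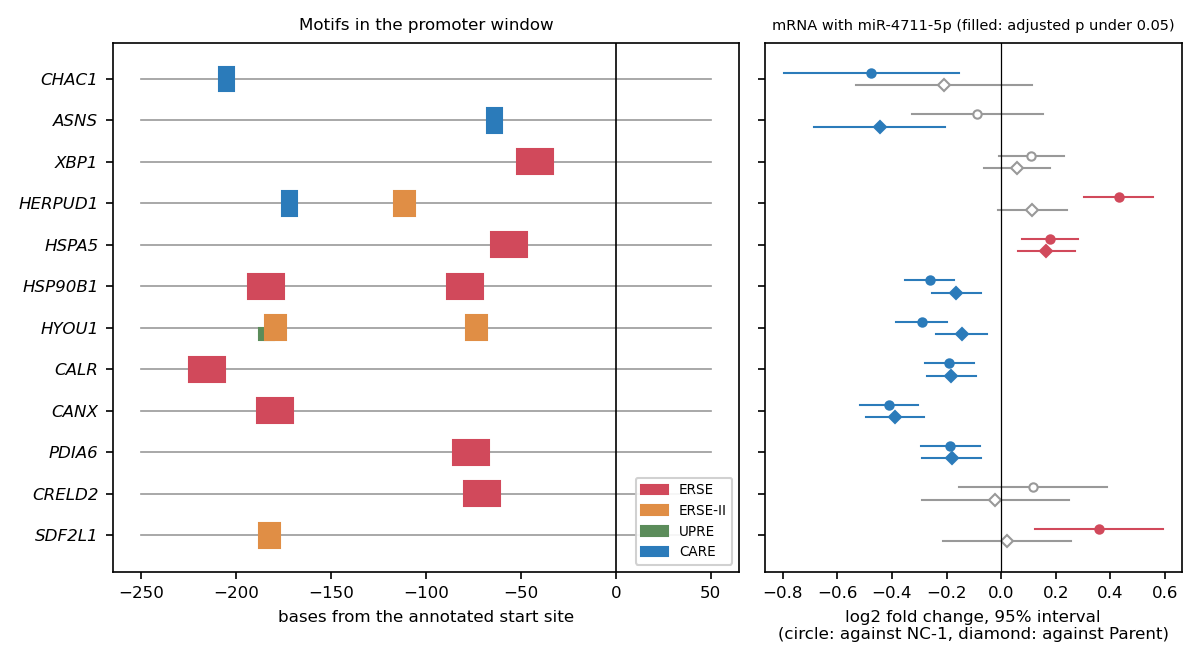
Position of the motifs in bases from the annotated start site (left; CANX is drawn in 1 of its 3 windows) and log2 fold changes with 95% intervals (right) for the 12 members with a motif, with circles against NC-1, diamonds against Parent and filled symbols where the adjusted p was under 0.05. Among the 7 genes with an ERSE, HSPA5 lies right of 0 and HSP90B1, CALR, CANX and PDIA6 lie left of it against both controls.

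Set side by side, the ATF4 branch and the ER chaperones both held calls in both directions. Of the 14 tested genes of the ATF4 branch, 4 rose and 4 fell against NC-1, and 2 rose and 6 fell against Parent. Of the 14 chaperones, 3 rose and 7 fell in each. Over all genes the shares were 18.4% higher and 21.2% lower against NC-1, and 18.7% higher and 24.7% lower against Parent. The median log2 fold change against NC-1 was -0.08 in the ATF4 branch and -0.16 in the chaperones, beside 0.00 over all genes tested. Against Parent the medians were -0.18 and -0.13, beside -0.01. With equal FPKM sums the medians against NC-1 were -0.03 and -0.11, beside 0.05 over all genes, and those against Parent were -0.04 and 0.01, beside 0.11, so that the sign of the chaperone median against Parent turned while it stayed below that of all genes. The number of ATF4 branch genes called lower than in NC-1 was 2 without NC-1 replicate 1 or miR-4711-5p replicate 1, and that called higher than in Parent was 1 without Parent replicate 2 or either miR-4711-5p library. Of the chaperones, 1 was called higher than in Parent without any 1 Parent or miR-4711-5p library, and 4 lower without either Parent library. With equal FPKM sums the split of chaperone calls against Parent became 3 higher and 2 lower, and that of the ATF4 branch 6 higher and 5 lower. Within the ATF4 branch, the range of log2 fold changes against NC-1 ran from -0.95 (TRIB3) to 0.75 (ATF5), and among the chaperones it ran from -0.58 (MANF) to 0.36 (SDF2L1).

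**Figure D5:**
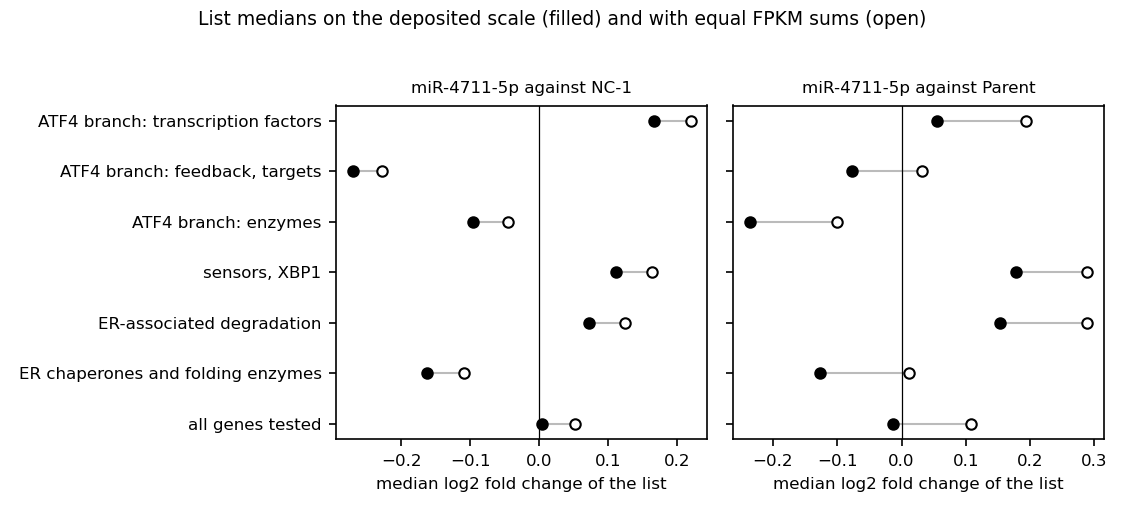
Median log2 fold change (horizontal axis) of the members of each role and of all 12040 genes tested, for miR-4711-5p against NC-1 and against Parent, with filled points on the deposited FPKM scale and open points with equal FPKM sums. The chaperone median was -0.16 against NC-1 and -0.13 against Parent on the deposited scale, and -0.11 and 0.01 with equal sums.

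NC-1 and Parent differed in part of the same genes. Of the 35 tested members, 4 were higher in NC-1 than in Parent and 8 lower, where 12.1% of all genes were higher and 15.1% lower. The higher ones were TRIB3, EDEM1, HYOU1 and DNAJB9, and the lower ones ATF5, CEBPB, ASNS, PSAT1, PHGDH, SHMT2, HERPUD1 and SDF2L1. Only ATF5, HERPUD1 and DNAJB9 kept the call in all 12 alternatives. With equal FPKM sums the split became 7 higher and 2 lower, and over all genes 2325 higher and 1000 lower in place of 1456 and 1823. The number called lower was 3 to 5 when any 1 library was left out, with 3 without Parent replicate 1 or either NC-1 library, 4 without either miR-4711-5p library and 5 without Parent replicate 2. TRIB3, which was lowest with miR-4711-5p, was higher in NC-1 than in Parent by 0.25 ± 0.05 (SE, adjusted p = 0.0172), and this call was lost without Parent replicate 1 or either NC-1 library (adjusted p 0.0527 to 0.0894).

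Other genes of the same pathways were read from 4 lists of 64 genes, of which 59 were tested. Against NC-1, 10 rose and 20 fell (18.4% and 21.2% of all genes), and against Parent 8 rose and 20 fell (18.7% and 24.7% of all genes). On the deposited scale, rises were thus no more frequent than over all genes. Without miR-4711-5p replicate 1, 13 fell against NC-1. With equal FPKM sums these counts were 17 and 16, and 21 and 13. The median log2 fold change was -0.06 against NC-1 and -0.07 against Parent.

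Among the eIF2 kinases, EIF2AK2 rose the most. It encodes PKR, the kinase that is activated by double-stranded RNA, and was at 15.3 and 14.1 FPKM in Parent, 16.5 and 16.2 in NC-1 and 36.7 and 33.8 with miR-4711-5p. The rise was 1.06 ± 0.06 (SE, adjusted p = 3.09e-05) against NC-1, which is also a treated group, and 1.21 ± 0.06 (SE, adjusted p = 1.55e-05) against Parent. EIF2AK4, which encodes GCN2, the sensor of amino acid shortage, was at 23.2 and 24.0 FPKM in Parent, 18.0 and 17.6 in NC-1 and 27.8 and 27.9 with miR-4711-5p, with NC-1 as the low group (0.62 ± 0.05 (SE, adjusted p = 0.000106) against NC-1, 0.23 ± 0.05 (SE, adjusted p = 0.00754) against Parent). EIF2AK1, which encodes HRI, ranged from 49.0 to 57.4 FPKM and was not called against NC-1. It was called lower than in Parent (-0.15 ± 0.05 SE, adjusted p = 0.0424), a call lost in 9 of the 12 alternatives. In the list of kinases, eIF2 and phosphatase subunits, 3 of 13 rose and 4 fell against NC-1, beside 18.4% and 21.2% of all genes, with the largest fall in EIF2S2, the beta subunit of eIF2 (-0.51 ± 0.05 SE, adjusted p = 0.00021).

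Of 15 tested ATF4 targets and partners outside the member list, 4 rose and 7 fell against NC-1, beside 18.4% and 21.2% of all genes. ATF3, a stress factor downstream of ATF4, was at 1.80 and 2.11 FPKM in Parent, 2.49 and 2.16 in NC-1 and 5.79 and 5.56 with miR-4711-5p and rose by 1.01 ± 0.10 (SE, adjusted p = 0.000286) against NC-1. GDF15, a secreted stress cytokine, had the largest rise in this list and was at 35.4 and 34.7 FPKM in Parent, 37.9 and 38.6 in NC-1 and 96.9 and 102 with miR-4711-5p (1.36 ± 0.05 (SE, adjusted p = 5.15e-06) against NC-1 and 1.48 ± 0.05 (SE, adjusted p = 3.41e-06) against Parent). SLC7A11, the cystine transporter, had the largest fall against NC-1 and was at 24.1 and 24.7 FPKM in Parent, 41.1 and 40.3 in NC-1 and 14.9 and 14.1 with miR-4711-5p. NC-1 was high and miR-4711-5p low, with -1.43 ± 0.05 (SE, adjusted p = 5.74e-06) against NC-1 and -0.71 ± 0.05 (SE, adjusted p = 5.88e-05) against Parent. Against Parent EIF4EBP1, which encodes an inhibitor of the translation factor eIF4E and was named after its values were seen, fell further (-1.01 ± 0.08 SE, adjusted p = 0.0001). CEBPG, a dimer partner of ATF4, was between 13.2 and 14.6 FPKM and was not called.

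Among the ATF6 and ER folding genes, 2 of 20 rose and 6 fell against NC-1, beside 18.4% and 21.2% of all genes. ATF6 was at 12.2 to 14.1 FPKM and was not called. HSPA13, a chaperone-like protein of microsomes, had the largest rise in this list against NC-1 (0.27 ± 0.07 SE, adjusted p = 0.0222). This call was lost without either NC-1 library or miR-4711-5p replicate 1 and with no filter on low values. Against Parent HSPA13 rose by 0.75, with 0.68 to 0.88 over the 12 alternatives. Its mean was 5.03 FPKM in Parent, 7.45 in NC-1 and 9.19 with miR-4711-5p. PDIA5, a disulfide isomerase, had the largest fall against NC-1 (-0.95 ± 0.09 SE, adjusted p = 0.000248). PDIA5 was at 12.7 and 13.8 FPKM in Parent, 14.7 and 15.04 in NC-1 and 6.52 and 7.93 with miR-4711-5p. TXNDC5, another disulfide isomerase of the ER, named after its values were seen, fell as far against NC-1 within the error (-0.95 ± 0.06 SE, adjusted p = 3.51e-05) and fell by 1.08 ± 0.06 (SE, adjusted p = 1.83e-05) against Parent, where PDIA5 was at -0.80 ± 0.09 (SE, adjusted p = 0.000483). TXNDC5 was at 129 and 129.7 FPKM in Parent, 113 and 123 in NC-1 and 58.2 and 63.0 with miR-4711-5p. Of 11 further genes of ER-associated degradation, 1 rose (DERL1, a channel component, 0.25 ± 0.05 SE, adjusted p = 0.00573) and 3 fell against NC-1, beside the same shares of all genes, with the largest fall in FAF2, a membrane protein that recruits the ATPase VCP (-0.50 ± 0.05 SE, adjusted p = 0.000464).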

How the data were processed

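RNA-seq of BxPC-3 cells was analysed in 3 groups (Parent, NC-1 and miR-4711-5p) of 2 libraries, grouped by the labels. The authors prepared strand-specific mRNA libraries, aligned reads to hg19 and deposited FPKM per gene symbol, normalized for length and library size with Cuffnorm. The submitters' processing notes name TopHat2 2.1.1, Bowtie2 2.3.5.1, SAMtools 1.2 and Cufflinks 2.2.1. The annotation, the strand option and the normalization option are not given in the sources used here. Read totals are unknown, so counting intervals were not computed.

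The 12040 genes whose mean reached 1 FPKM were tested on log2(FPKM + 1) with limma 3.58.1 (R 4.3.3; lmFit, contrasts.fit and eBayes with trend), all 3 groups in 1 fit with 3 residual and 4.15 prior degrees of freedom, and p-values were adjusted by Benjamini-Hochberg over all genes. With 2 libraries a group, an exact permutation test cannot go below p = 0.333. The steps were tested on simulated data with 200 changed genes. Against NC-1, 73% of log2 changes of 0.8 were called, 32.8% of those of 0.4 and 0.7% of those of 0.2. Of the calls, 5.47% were false. Small changes were thus mostly missed there. Far more genes were called in the real data than were changed in the simulation, so these shares do not carry over directly. The members and the lists were chosen with earlier results of these data known. All 36 members are named, with 6 fixed pathway genes and, per pathway list, the called gene with the largest rise and fall against NC-1. Alternatives were a pseudocount of 0.1, no filter, median-of-ratios scaling, a replicate block, only the 2 groups compared, each library left out, and equal FPKM sums. Sequences were read from RefSeq (GRCh38.p14) and 3′ UTRs from GENCODE (GRCh37) with Python 3.11.15. Figures were drawn with matplotlib 3.10.9.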

Additional observations from a re-analysis of the deposited data

How the results depend on the processing

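Of the 105 member results (35 genes in 3 comparisons), median-of-ratios scaling left all 105 on the same side of the threshold and in the same direction, a pseudocount of 0.1 left 103, no filter 98 and only the 2 groups compared 97. The median-of-ratios factors were 1.006 to 1.007 in every library. That scaling could therefore change almost nothing, and its result is no sign of stability. The replicate numbers did not pair the samples (correlations of the deviations 0.061, 0.003 and -0.009). With the replicate block 100 were unchanged, 4 lost and 1 gained the call. Leaving out 1 library left 77 to 87, the fewest without miR-4711-5p replicate 1. Equal FPKM sums, added after seeing the data, left 70. The cause of these changes was not tested, beyond the fewer samples in the leave-one-out fits. Counts moved as follows. Members called against NC-1 were 4 to 9 (higher) and 7 to 11 (lower) with 1 library left out. Against Parent they were 2 to 7 and 8 to 14 with 1 library left out, and 15 and 8 with equal sums. For NC-1 against Parent they were 1 to 3 and 3 to 5 with 1 library left out, 7 and 2 with equal sums, and 4 lower with no filter and with only the 2 groups compared. Pathway genes with equal sums were 17 higher against NC-1, 21 higher and 13 lower against Parent, and 17 higher and 3 lower for NC-1 against Parent. With 1 library left out, 13 to 19 were lower against NC-1 and 2 to 4 lower in NC-1 than in Parent. Medians of the ATF4 branch with equal sums were -0.026 against NC-1, -0.042 against Parent and -0.0052 for NC-1 against Parent, and with 1 library left out -0.086 to -0.025, -0.18 to -0.14 and -0.15 to -0.058. Those of the chaperones were -0.11, 0.012 and 0.091 with equal sums, and -0.16 to -0.14, -0.13 to -0.11 and -0.0081 to 0.028 with 1 library left out. The sign of differences that were not called turned with equal sums for NC-1 against Parent in ATF4 (0.029), DDIT3 (0.048), PPP1R15A (0.0064), XBP1 (0.032), HSPA5 (0.072) and PDIA4 (0.024), for miR-4711-5p against Parent in PDIA3 (0.031), CRELD2 (0.11) and CEBPG (0.059), and against NC-1 in EDEM1 (0.017). With 1 library left out it turned within these ranges, for NC-1 against Parent in DDIT3 (-0.088 to 0.023), PPP1R15A (-0.16 to 0.0066), ERN1 (-0.047 to 0.10), HSPA5 (-0.057 to 0.031), DNAJB11 (-0.045 to 0.090), CALR (-0.012 to 0.024), CANX (-0.025 to 0.069), PDIA3 (-0.016 to 0.025), PDIA6 (-0.030 to 0.041) and CRELD2 (-0.34 to 0.060), for miR-4711-5p against Parent in ATF4 (-0.010 to 0.033), DNAJC3 (-0.035 to 0.14) and SDF2L1 (-0.12 to 0.17), and against NC-1 in EDEM1 (-0.087 to 0.016) and CRELD2 (-0.082 to 0.32). Read totals are unknown, so what depth limits could not be stated in counts.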

Other observations

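Ratios of 2 members within 1 library do not depend on how libraries are scaled, and a few pairs, chosen after their values were seen, show unequal change inside the module. PPP1R15A over TRIB3 was 2.33 and 2.21 in the Parent libraries, 1.87 and 1.72 in the NC-1 libraries and 5.74 and 5.71 in the miR-4711-5p libraries. HSPA5 over MANF was 3.38 and 3.25 in Parent, 3.75 and 3.30 in NC-1 and 5.85 and 6.18 with miR-4711-5p. HSPA5 over HSP90B1 was 0.818 and 0.794, 0.763 and 0.728, and 1.02 and 1.01 in the same order. HERPUD1 over SEL1L was 1.80 and 1.63 in Parent, 1.23 and 1.31 in NC-1 and 2.95 and 3.10 with miR-4711-5p. In each of these pairs both miR-4711-5p libraries lay above all 4 control libraries. The pairs were picked for this, so that no test is given.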
